A study of Mus musculus with 2 samples.

Results

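Transcripts of 10 genes of the bone morphogenetic protein (BMP) pathway were followed across the cell types of the mouse heart after pressure overload. They were the ligands Bmp2, Bmp4 and Bmp6, the antagonist Grem1 (gremlin), the receptors Bmpr2 and Acvrl1, the inhibitory SMADs Smad6 and Smad7, and the target genes Id1 and Id3. All 10 were listed among the 56954 features of the deposited matrix, and 9 had at least 1 UMI (a unique molecular identifier, the tag that marks 1 captured transcript molecule). Grem1 had none.

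The study took non-cardiomyocytes from the hearts of 4 Nts KO mice and 3 control mice. The mice were 6 to 8 weeks old per the labels, and both genotypes had undergone TAC surgery (transverse aortic constriction, a banding of the aorta that raises the load on the left ventricle) 7 days before. Live cells of all 7 hearts were sorted into 1 tube and captured as 1 droplet library. The files used here do not tie cells to mice, the genotype entry of the labels names only WT animals, and no unoperated heart was included. Nts KO cells were therefore not compared with control cells, no genotype was inferred, and every value below describes the pool of both genotypes after TAC.

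BMPs are secreted dimers that bring together type I receptors (among them Acvrl1, also called ALK1, and Bmpr1a) and type II receptors (among them Bmpr2). The receptors phosphorylate SMAD1, SMAD5 and SMAD9, which join SMAD4 and switch on target genes such as the Id genes, whose products block helix-loop-helix transcription factors. Smad6 and Smad7 are themselves targets and feed back as inhibitors, while gremlin, noggin, chordin and related secreted proteins bind the ligands outside the cell. In the heart, endothelial cells, endocardium and fibroblasts are all known as sources and recipients of BMP signals.

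Of 9369 cell barcodes, 357 were called doublets and removed, and 7956 of the remaining 9012 cells (88.3%) fell into 21 gates set on raw UMIs of marker genes. Endothelial cells comprised 54 lymphatic, 168 endocardial-type and 136 capillary cells and 118 other endothelial cells that met no subset rule. Mural cells, the contractile cells around vessels, were few, with 37 pericyte-type and 20 smooth muscle-type cells among 59. The macrophages numbered 445 with resident markers such as Folr2 and Timd4, 1218 other macrophages with at most 1 resident marker, and 255 in between. Fibroblasts made up 4991 cells, in 8 subsets of 28 to 1004 cells, 2780 cells of no subset and 428 cells of more than 1.

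The endothelial gates were set on the markers of their names. The presence of these markers was therefore largely fixed by the gating and is no test of the identity of the gates. All 8 endothelial markers were present in each of the 4 endothelial gates, where they summed to 4250 to 5745 CPM (UMIs of the gene in every 1000000 UMIs of the gate), and all 7 lymphatic, all 7 endocardial and all 8 capillary markers were present in their own gates. The fibroblast markers summed to 138 CPM in lymphatic, 578 CPM in endocardial-type and 273 CPM in capillary cells, and the macrophage markers to 430 CPM in lymphatic, 316 CPM in endocardial-type and 188 CPM in capillary cells. Neutrophil markers summed to 45.9 CPM in lymphatic and 191 CPM in endocardial-type cells, against 732 CPM in capillary cells. The gating also required more endothelial markers than markers of any other lineage, which by itself limits the fibroblast and macrophage sums. The part of fibroblast, macrophage and neutrophil transcripts in the differences between endothelial gates was not tested. Median depth ran from 3414 UMIs per cell in B cells to 12533 in the Il6, Tnc and Col26a1 fibroblasts.

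Levels are given as CPM, with the exact 95% Poisson interval in brackets. Shares of cells with a UMI are given after every cell was thinned to 2500 UMIs, because depth differed between gates. With 1 library there is no replicate, so no significance test was possible, and all intervals cover counting error only. Calls of higher or lower needed a ratio of at least 2 and, summed over the compared cells, at least 20 UMIs of the gene.

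Promoter sequence, from 250 bases before to 50 bases after the gene start, was held in the RefSeq table (build GRCm38.p6) for Bmp4, Bmp6, Grem1, Bmpr2, Smad6 and Id3. It was searched on both strands for motifs recorded for SMAD proteins, and the promoters of the inhibitor Smad6 and the target Id3 are printed because both genes are read below as BMP targets. The Smad6 promoter is at chr9:64022010-64022309 on the minus strand, and the Id3 promoter at chr4:136143572-136143871 on the plus strand. Capitals mark GTCT or its complement AGAC, the core SMAD-binding element.
Smad6: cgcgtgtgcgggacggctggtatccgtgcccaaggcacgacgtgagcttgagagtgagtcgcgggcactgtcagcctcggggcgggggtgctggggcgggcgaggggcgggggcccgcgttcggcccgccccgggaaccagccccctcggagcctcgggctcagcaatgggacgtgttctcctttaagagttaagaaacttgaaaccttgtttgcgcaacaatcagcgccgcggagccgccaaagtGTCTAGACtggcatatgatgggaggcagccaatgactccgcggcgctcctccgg
Id3: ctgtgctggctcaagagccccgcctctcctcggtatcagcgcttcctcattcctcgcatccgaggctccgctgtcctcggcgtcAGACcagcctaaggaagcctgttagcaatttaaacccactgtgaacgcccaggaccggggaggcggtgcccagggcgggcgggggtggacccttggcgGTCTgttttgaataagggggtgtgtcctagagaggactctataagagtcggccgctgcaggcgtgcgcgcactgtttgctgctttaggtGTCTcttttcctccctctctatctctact
Smad6 was the only promoter of the 6 with the palindrome GTCTAGAC, which starts 4 bases before the gene start and is the run of capitals printed above. This palindrome was present in 70 of 32851 promoters of the same length (0.213%). The core GTCT occurred 2 times in Smad6, 3 times in Id3, 2 times in Bmp4, 4 times in Bmp6, 6 times in Grem1 and 0 times in Bmpr2, and 88.0% of all promoters held it, so its presence is common. The GC-rich motif GGCGCC occurred in Bmpr2 and Grem1 (11.9% of all promoters), and GCCGNCGC in Grem1 and Bmp6 (9.76%). These are matches of letters, not measured sites.

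Bmp2, a ligand known for its part in forming the cardiac valves and septa, was carried by a few cells in several lineages. In the ordered levels, other endothelial cells came first at 154 CPM (125 to 188), followed by smooth muscle-type cells at 124 CPM (63.9 to 216, 12 UMIs) and Wif1, Comp and Fmod fibroblasts at 101 CPM (64.9 to 151). These 3 could not be told apart. Resident-marker macrophages had 56.2 CPM (48.2 to 65.2), ahead of intermediate macrophages at 24.6 CPM (17.6 to 33.5) and other macrophages at 18.4 CPM (15.4 to 21.8). Bmp2 was thus a macrophage transcript too, unlike the other ligands below. Among fibroblasts, progenitor-type cells had 49.0 CPM (44.6 to 53.6), Cxcl14 and C3 cells 45.9 CPM, cells of no subset 35.8 CPM, cycling cells 10.9 CPM and activated cells 9.71 CPM (4.44 to 18.4).

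The 3 named endothelial subsets held almost no Bmp2. Lymphatic cells had 0 UMIs, where 3 UMIs would have been 10.6 CPM. Endocardial-type cells had 8.19 CPM, from 9 UMIs in 5 cells, and all 16 Bmp2 UMIs of the capillary gate (22.7 CPM) lay in 1 of its 136 cells. In the other endothelial cells 28 of 118 cells carried Bmp2, and the 10 cells with most of it held 65.6% of its 96 UMIs. Those 118 cells, set against the 3 named subsets together, were led by Gkn3, Bmp2 (154 against 12.0 CPM), Gzma and Sema3g, and 17 of them had no subset marker at all. T cells and B cells had no Bmp2 UMI.

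**Figure D1:**
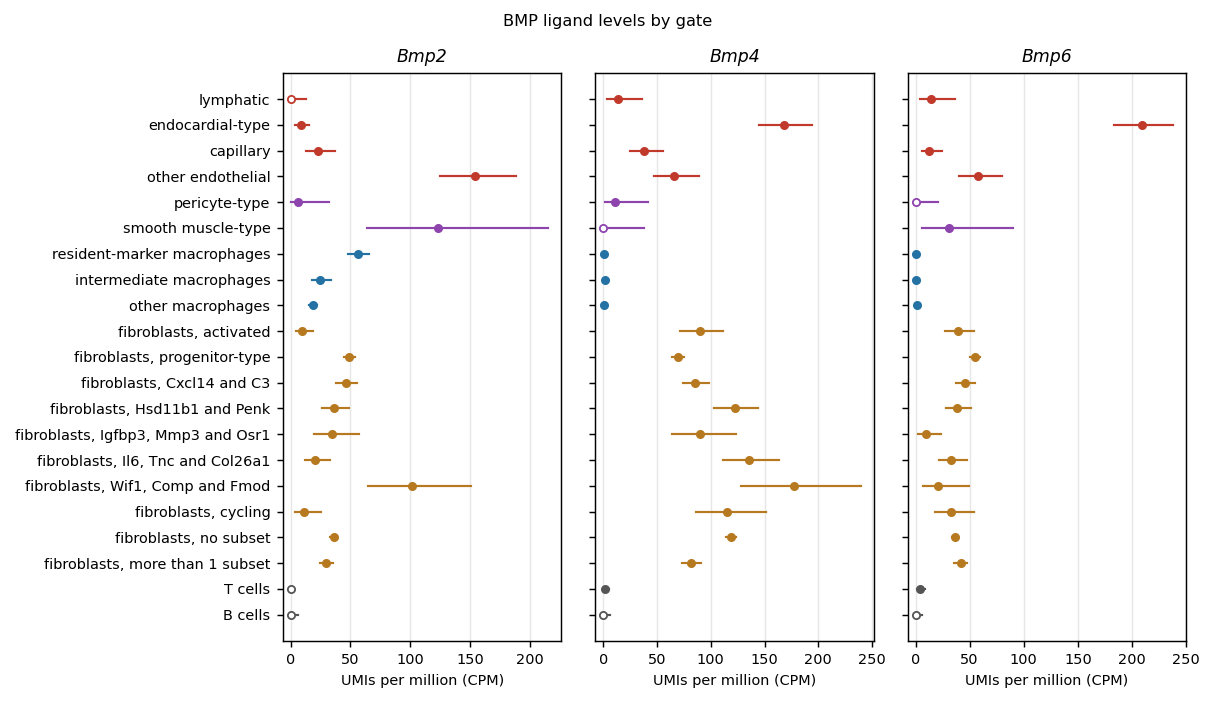
Levels of Bmp2, Bmp4 and Bmp6 (CPM, x axis) in the 21 gates (y axis), with exact 95% Poisson intervals as bars and open circles for 0 UMIs. Bmp2 is highest in other endothelial cells (154 CPM), Bmp6 in endocardial-type cells (209 CPM), and Bmp4 in Wif1, Comp and Fmod fibroblasts (177 CPM) and endocardial-type cells (168 CPM), while macrophages have 18.4 to 56.2 CPM of Bmp2 and at most 1.23 CPM of the other ligands.

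Bmp4, a ligand that shares its receptors with Bmp2, was a transcript of fibroblasts and endocardial-type endothelium. Wif1, Comp and Fmod fibroblasts had 177 CPM (128 to 240) and endocardial-type cells 168 CPM (145 to 194), which could not be told apart. Over the 8 fibroblast subsets the level ran from 69.5 CPM (64.3 to 75) in progenitor-type cells, through a median of 103 CPM, to that of the Wif1, Comp and Fmod cells. Other endothelial cells had 65.9 CPM and capillary cells 38.4 CPM (25.3 to 55.8), and lymphatic cells had 4 UMIs (14.1 CPM). Every fibroblast subset therefore lay above the capillary and lymphatic gates. Pericyte-type cells had 2 Bmp4 UMIs and smooth muscle-type cells none.

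The endocardial-type level of Bmp4 was uneven between cells. A UMI was seen in 58 of 168 cells (34.5%), in 20.2% at equal depth, and the 10 cells with most Bmp4 held 54.1% of its UMIs, 22 of them in 1 cell. In fibroblasts at equal depth 20.3% of cells carried Bmp4. In macrophages 0.261% did, and in lymphocytes, which mark the background of free RNA at a median of 3414 to 3537 UMIs per cell, 0.586%. The macrophage levels of 0.646 to 1.23 CPM were therefore at background.

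Bmp6, a ligand best known for inducing the iron hormone hepcidin from liver endothelium, peaked in endocardial-type cells. Their level was 209 CPM (183 to 238), and 84 of 168 cells (50%) had a UMI, or 33.9% (26.8 to 41.6) at equal depth. Other endothelial cells followed at 57.8 CPM (40.5 to 80.1). Lymphatic cells had 4 UMIs (14.1 CPM) and capillary cells 9 UMIs in 9 cells (12.8 CPM, 5.85 to 24.3). In lymphatic cells 3 UMIs would have been 10.6 CPM, close to the level seen, and in capillary cells 4.26 CPM, below the interval. Fibroblast subsets ran from 9.26 CPM (4 UMIs) in Igfbp3, Mmp3 and Osr1 cells, through a median of 35.6 CPM, to 54.6 CPM (50.03 to 59.5) in progenitor-type cells. The 3 macrophage gates had 0.615 to 0.946 CPM, T cells 3.84 CPM, and pericyte-type and B cells none.

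Bmp6 overlaps Txndc5, a gene for an endoplasmic reticulum protein on the opposite strand, and the strand setting of the counting is not given in the sources used here. Txndc5 itself had 278 CPM (248 to 312) in endocardial-type cells, against 44.0 CPM in capillary, 31.7 CPM in lymphatic and 41.8 CPM in other endothelial cells. Its fibroblast levels were 248 to 434 CPM. Both genes were therefore high in endocardial-type cells, but in fibroblasts Txndc5 was as high as in endocardial-type cells while Bmp6 was not. Whether reads were shared between them was not tested.

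Grem1, the secreted antagonist that binds Bmp2 and Bmp4, had 0 UMIs in all 9369 barcodes. A count of 0 in 69993559 UMIs allows up to 0.0429 CPM. Among 21829 protein-coding genes, 4635 (21.2%) were also at 0, and the rules by which reads were assigned to genes are not given in the sources used here, so the 0 is a statement about this matrix.

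Other extracellular antagonists were present and divided the cell types. Of the 13 listed, 12 had a UMI in the gates and 11 had at least 20. Fibroblasts held most of them, with the list summing highest in activated fibroblasts, led by the follistatin-like glycoprotein Fstl1 (3351 CPM), the DAN-family antagonist Nbl1 (281 CPM) and Twsg1, which binds BMPs together with chordin (56.1 CPM). Sost (sclerostin, known as a Wnt inhibitor of bone and a distant gremlin relative) was at 154 CPM (131 to 179) in endocardial-type cells, 12.9 CPM in other endothelial cells and 0 in lymphatic and capillary cells. Crim1, a transmembrane protein that holds BMPs at the cell surface, had 286 CPM in endocardial-type, 166 CPM in lymphatic, 130 CPM in other endothelial and 59.7 CPM in capillary cells. Capillary cells thus had the lowest level of the 4 endothelial gates for both Crim1 and Nbl1, whose levels were 89.2 to 103 CPM in the 3 other gates and 11.4 CPM in capillary cells.

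**Figure D2:**
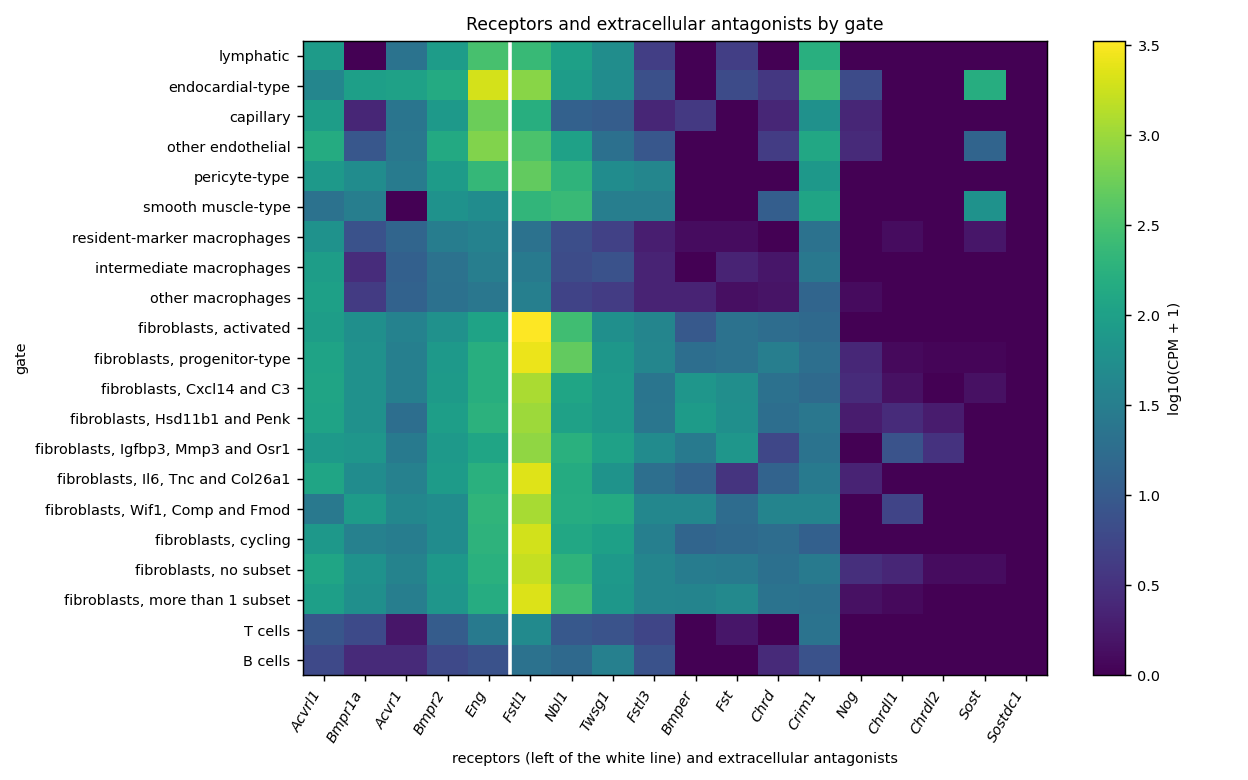
Levels as log10(CPM + 1) (colour) of 5 receptors (left of the white line) and 13 extracellular antagonists (right of it) in the 21 gates (rows), to be read down each column. Fstl1 and Nbl1 are bright in all fibroblast rows, Sost is bright in endocardial-type cells (154 CPM), and Bmpr1a is at 96.5 CPM in endocardial-type cells and 0 in lymphatic cells.

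Bmpr2, the type II receptor mutated in heritable pulmonary arterial hypertension in humans, was detected in all 21 gates. Endocardial-type cells had 141 CPM (120 to 165) and other endothelial cells 138 CPM, ahead of lymphatic cells at 88.2 CPM (57.1 to 130) and capillary cells at 76.7 CPM (57.6 to 100). The fibroblast subsets ran from 50.1 CPM in cycling cells to 93.9 CPM in Hsd11b1 and Penk cells, with a median of 79.1 CPM. Mural cells as a whole had 74.1 CPM from 21 UMIs. Macrophages were lower, at 30.0 CPM with resident markers, 20.3 CPM in between and 19.9 CPM in the others. T and B cells had 9.61 and 5.002 CPM, from 15 and 3 UMIs.

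Acvrl1, the type I receptor for circulating BMP9 and BMP10 that is best known from arterial endothelium, was not an endothelial transcript only. Other endothelial cells had 145 CPM (116 to 178), capillary cells 89.5 CPM (68.8 to 114), lymphatic cells 84.7 CPM and endocardial-type cells 41.0 CPM (29.9 to 54.8). Fibroblasts as a whole had 111 CPM (108 to 114), with 7 of the 8 subsets at 74.0 to 119 CPM and the Wif1, Comp and Fmod cells at 25.3 CPM from 6 UMIs. Other macrophages had 101 CPM (93.6 to 108), intermediate macrophages 89.8 CPM and resident-marker macrophages 62.3 CPM. Lymphocytes had little of it, at 7.69 CPM in T cells (12 UMIs) and 5.002 CPM in B cells (3 UMIs). At equal depth 18.9% of macrophages against 1.95% of lymphocytes had a UMI. In the order of the 21 gates, only 1 of 20 neighbouring pairs differed beyond the counting interval.

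The list of 8 further receptors and coreceptors summed highest in endocardial-type cells, a sum carried mostly by the coreceptor Eng (endoglin) at 1959 CPM. Next there were Acvr1 at 102 CPM and Bmpr1a, a type I receptor for Bmp2 and Bmp4, at 96.5 CPM. Eng was at 317 CPM in lymphatic, 537 CPM in capillary and 721 CPM in other endothelial cells. Bmpr1a had 0 UMIs in lymphatic cells, 1 UMI in capillary cells and 5 UMIs in other endothelial cells. The endocardial-type gate, with 106 Bmpr1a UMIs, thus held nearly all of those in endothelium.

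**Figure D3:**
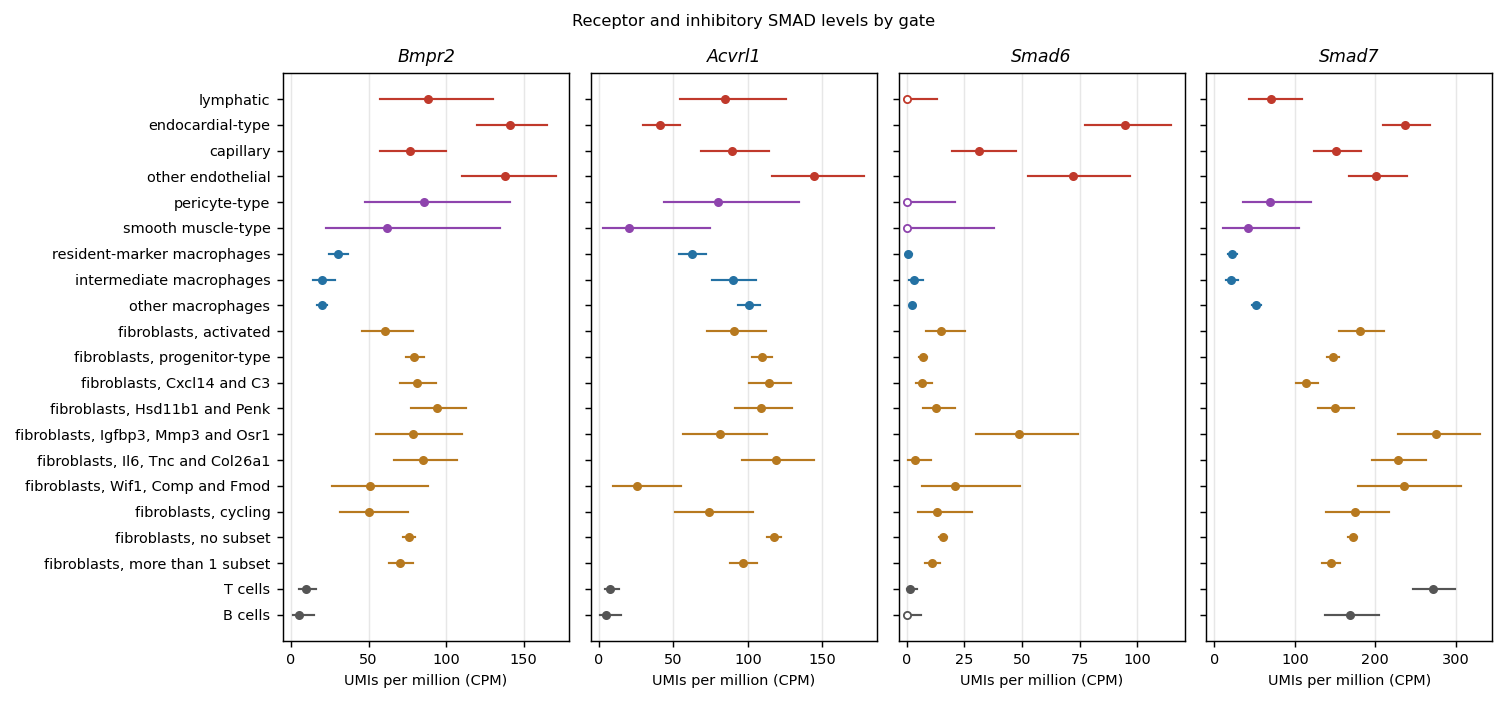
Levels of Bmpr2, Acvrl1, Smad6 and Smad7 (CPM, x axes) in the 21 gates (y axis), with exact 95% Poisson intervals and open circles for 0 UMIs. Acvrl1 is as high in other macrophages (101 CPM) as in capillary cells (89.5 CPM), Smad6 is highest in endocardial-type cells (94.7 CPM), and Smad7 is high in T cells (272 CPM).

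Smad6, the inhibitory SMAD that acts mainly on BMP receptors, had no UMI in several gates. Endocardial-type cells had 94.7 CPM (77.3 to 115) and a UMI in 22.6% of cells at equal depth, and other endothelial cells had 72.3 CPM. Igfbp3, Mmp3 and Osr1 fibroblasts came next at 48.6 CPM (30.1 to 74.3, 21 UMIs) and capillary cells at 31.3 CPM (19.6 to 47.3, 22 UMIs). The 7 other fibroblast subsets had 3.63 to 21.1 CPM. Lymphatic, pericyte-type, smooth muscle-type and B cells had 0 UMIs, and the 3 macrophage gates 0.646 to 3.08 CPM. In lymphatic cells 3 UMIs would have been 10.6 CPM, in pericyte-type cells 17.1 CPM and in smooth muscle-type cells 30.9 CPM. Fibroblasts as a whole had 12.6 CPM, so 0 UMIs in the small mural gates do not show that Smad6 was absent there.

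Smad7, the inhibitory SMAD that acts on both TGF-beta and BMP receptors, was present in every gate. Igfbp3, Mmp3 and Osr1 fibroblasts had 276 CPM (228 to 330) and T cells 272 CPM (247 to 299), which could not be told apart. Among endothelial gates, endocardial-type cells had 238 CPM (210 to 268), other endothelial cells 201 CPM, capillary cells 151 CPM (123 to 182) and lymphatic cells 70.5 CPM (43.1 to 109, 20 UMIs). A UMI was seen at equal depth in 44.0% of endocardial-type, 30.5% of other endothelial, 27.9% of capillary and 14.8% of lymphatic cells, the same order. Macrophages were lower, at 51.9 CPM in other macrophages, 21.6 CPM in resident-marker cells and 20.9 CPM in between. Smad6 and Smad7 thus shared a high level in endocardial-type cells and in the Igfbp3, Mmp3 and Osr1 fibroblasts, and differed in T cells, where Smad6 had 2 UMIs.

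The transducers went the other way in the lymphatic gate. The list of SMAD transducers summed highest there, with Smad1 at 303 CPM (243 to 375), Smad5 at 141 CPM (101 to 192) and Smad4 at 91.7 CPM. Smad1 was at 102 CPM in endocardial-type, 138 CPM in capillary and 120 CPM in other endothelial cells. Lymphatic cells therefore combined the highest Smad1 and Smad5 of the endothelial gates with no Smad6 UMI and the lowest Smad7.

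Id1, a direct BMP target in endothelium, differed between the 4 endothelial gates, and 3 of them lay above every other gate. Capillary cells had 1562 CPM (1471 to 1657), other endothelial cells 1226 CPM (1140 to 1316), lymphatic cells 906 CPM (799 to 1024) and endocardial-type cells 332 CPM (299 to 368). Each neighbour in this order differed beyond the counting interval. At equal depth 80.1% (72.4 to 86.5) of capillary, 64.4% of other endothelial, 64.8% of lymphatic and 44.0% (36.4 to 51.9) of endocardial-type cells had a UMI, so the order held in the share of cells except for other endothelial and lymphatic cells, which were alike. Outside the endothelium Il6, Tnc and Col26a1 fibroblasts had 317 CPM (280 to 358), which could not be told apart from the endocardial-type level, activated fibroblasts 260 CPM, cycling fibroblasts 259 CPM and Cxcl14 and C3 fibroblasts 105 CPM. Smooth muscle-type cells had 309 CPM, with 12 of 30 UMIs in 1 cell. Macrophages had 33.6 to 63.6 CPM and T cells 15.4 CPM.

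Id3 was broader. Smooth muscle-type cells had 3182 CPM (2837 to 3557, all 20 cells with a UMI), capillary cells 2106 CPM (2000 to 2216) and Il6, Tnc and Col26a1 fibroblasts 2090 CPM. The 10 smooth muscle-type cells with most Id3 held 91.6% of its UMIs there, and at equal depth 80% (56.3 to 94.3) of that gate had a UMI. Other endothelial cells had 1560 CPM, endocardial-type cells 1441 CPM (1371 to 1513) and lymphatic cells 1393 CPM (1259 to 1538). Fibroblast subsets thus spanned the same range as endothelium, from 1270 CPM in Cxcl14 and C3 cells to the Il6, Tnc and Col26a1 cells. Resident-marker macrophages had 467 CPM, intermediate macrophages 562 CPM and other macrophages 645 CPM, and T and B cells 183 CPM each. At equal depth 94.1% of capillary cells and 42.3% of macrophages had an Id3 UMI, against 28.5% of lymphocytes.

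The genes that tissue dissociation induces were read beside the Id genes. All 8 of the list (Fos, Jun, Egr1 and others) were detected in the endothelial gates and summed to 18870 CPM in lymphatic, 14317 CPM in endocardial-type, 18259 CPM in other endothelial and 13302 CPM in capillary cells. Of these 4 gates, capillary cells had the highest Id1 (1562 CPM) and the lowest sum. Endocardial-type cells had the lowest Id1 (332 CPM) and the next lowest sum. T cells had a sum of 10094 CPM. Smooth muscle-type cells, highest for Id3, had a sum of 21912 CPM. Pericyte-type cells had the lowest sum of all gates (7423 CPM), with Id3 at 919 CPM. Fibroblast gates ran from 12206 CPM in cycling cells (Id3 at 1533 CPM) to 22421 CPM in Hsd11b1 and Penk cells (Id3 at 1347 CPM). The part of dissociation in the Id1 and Id3 levels was not tested.

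**Figure D4:**
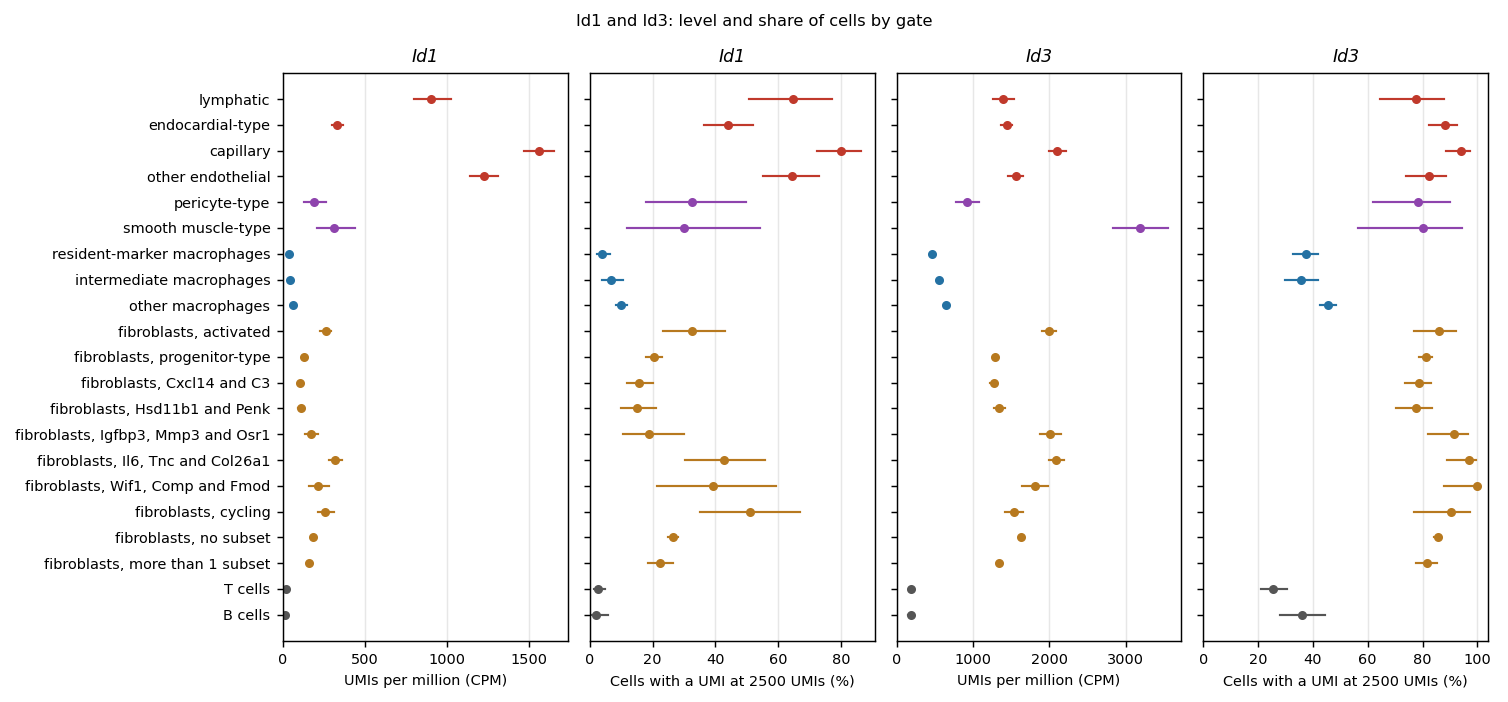
Levels of Id1 and Id3 (CPM) and the share of cells with a UMI after thinning to 2500 UMIs (percent), by gate (y axis), with exact 95% intervals. Id1 has 4 separate endothelial levels from 1562 CPM in capillary to 332 CPM in endocardial-type cells, while Id3 is above 900 CPM in every endothelial, mural and fibroblast gate.

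Other target genes of the pathway divided the endothelial gates in more than 1 order. The list of 11 further targets and regulators summed highest in endocardial-type cells, led by Id2 (501 CPM), Tmem100 (175 CPM), known as an ALK1-dependent endothelial gene, and Bambi (109 CPM), a decoy receptor. Tmem100 was also at 175 CPM in other endothelial cells, at 56.4 CPM in lymphatic cells and at 5.68 CPM (4 UMIs) in capillary cells. Id2 had 180 CPM in lymphatic, 204 CPM in other endothelial and 107 CPM in capillary cells. Msx1, a homeobox gene, ran in the order of Id1 except that lymphatic cells had 0 UMIs, with 51.9 CPM in endocardial-type, 81.9 CPM in other endothelial and 105 CPM in capillary cells, the last 2 with overlapping intervals. Capillary cells thus had the highest Id1 and the lowest Tmem100 and Id2 of the 4 endothelial gates.

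Endothelial cells, set against all other gated cells, had higher Id1, Smad6 and Bmp6. Id1 was at 917 against 137 CPM, a ratio of 6.70 (6.41 to 7.02). Smad6 was at 63.1 against 9.79 CPM, a ratio of 6.45 (5.4 to 7.67), and Bmp6 at 103 against 30.7 CPM, a ratio of 3.35 (2.94 to 3.81). The last 2 ratios were not shared by all endothelial gates. Endocardial-type cells held 230 of the 279 endothelial Bmp6 UMIs, while lymphatic cells had 14.1 CPM and capillary cells 12.8 CPM. They also held 104 of the 171 Smad6 UMIs, and lymphatic cells had 0. Of 9 members tested 3 were higher and 0 lower, where 13.5% of all 17993 genes tested were higher and 14.7% lower. The 6 others stayed within 2-fold, Bmp2 at a ratio of 1.29 and Bmp4 at 1.26. Of 4 SMAD transducers 2 were higher (Smad1 at 3.40, Smad5 at 2.19), and of 11 antagonists 3 were higher and 6 lower, with a median log2 ratio of -1.42 beside 0.04 over all genes tested. Of 10 other targets 3 were higher, led by Hey1 (8.77) and Hey2 (4.59), and 1 was lower, Id4.

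**Figure D5:**
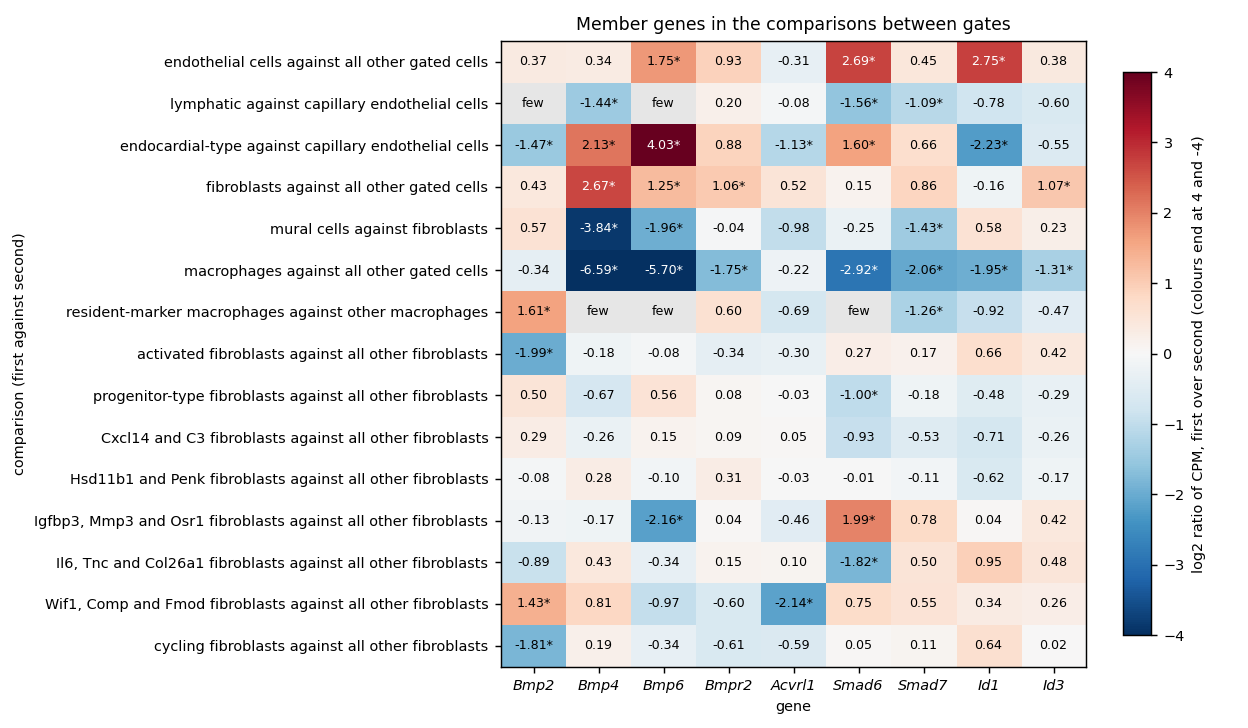
Log2 ratio of CPM, first over second named side (colour and number), for 9 members in 15 comparisons, where a star marks at least 2-fold with at least 20 UMIs and "few" marks too few UMIs. Endocardial-type cells show 4.03 for Bmp6 and -2.23 for Id1 against capillary cells, and macrophages are negative for all 9 members against the other cells. Grem1 is left out because it had 0 UMIs.

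Lymphatic cells, set against capillary cells, had less of both inhibitory SMADs. Smad6 had 0 UMIs in lymphatic cells against 22 in capillary cells, at least 2.95-fold lower with 3 UMIs as the floor of the lymphatic gate. That bound leaves out the counting error of the 22 capillary UMIs. Smad7 was at 70.5 against 151 CPM, 2.14-fold lower (1.32 to 3.64). Bmp4 was at 14.1 against 38.4 CPM from 4 and 27 UMIs, 2.72-fold lower with an interval that includes 1. Of 7 members with enough UMIs these 3 were lower and 0 higher, where 13.2% of 6512 genes were lower and 11.3% higher. Id1 was 1.72-fold (1.50 to 1.98) and Id3 1.51-fold (1.35 to 1.69) lower, short of the threshold, and Bmpr2 (ratio 1.15) and Acvrl1 (0.946) had intervals that include 1. With cells thinned to equal depth 0 members were called, Smad7 lying at a log2 ratio of -0.90 and Smad6 and Bmp4 having too few UMIs.

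The rest of the pathway in lymphatic against capillary cells ran higher for transducers and antagonists. Smad1 was 2.20-fold (1.63 to 2.97) and Smad5 2.76-fold (1.71 to 4.45) higher, 2 of 3 transducers tested. Nbl1 (8.69, 3.86 to 22.1), Twsg1 (5.32) and Crim1 (2.78) were higher among 4 antagonists tested. Among 6 other targets Tmem100 was 9.93-fold higher (3.20 to 40.8, 16 against 4 UMIs), Msx1 was at least 9.94-fold lower (0 against 74 UMIs), and the ubiquitin ligase Smurf2 was 4.43-fold lower on 3 UMIs (1.39 to 22.6). Of 4 receptors tested 1 was lower, Rgmb, with an interval that includes 1.

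Endocardial-type cells, set against capillary cells, had higher ligand levels. The ligands Bmp6 (209 against 12.8 CPM, ratio 16.4, 8.47 to 36.3) and Bmp4 (168 against 38.4 CPM, ratio 4.39, 2.92 to 6.84) were higher. Smad6 was also higher, at 94.7 against 31.3 CPM (ratio 3.03, 1.90 to 5.04). The target Id1 was 4.70-fold lower (4.17 to 5.31) and the receptor Acvrl1 2.19-fold lower (1.47 to 3.28). Bmp2 was 2.78-fold lower, a value that rests on the 1 capillary cell with all 16 UMIs and could not be had without it. Endocardial-type cells thus had more ligand and more inhibitor transcript and less Id1. Of 9 members tested 3 were higher and 3 lower, where 13.7% of 8466 genes were higher and 9.3% lower. Bmpr2 (1.84), Smad7 (1.58) and Id3 (1.46-fold lower) stayed within 2-fold. With Leiden clusters in place of gates the log2 ratio was 0.80 for Smad6 and -0.09 for Bmp2, and at equal depth it was -0.96 for Acvrl1, all inside the threshold.

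All 5 antagonists tested in that comparison were higher in endocardial-type cells. Sost was at least 36.1-fold higher (169 against 0 UMIs), followed by Nbl1 (7.85), Twsg1 (5.12), Fstl1 (4.80) and Crim1 (4.79). The fibroblast marker sum was 578 CPM in the endocardial-type gate, 273 CPM in the capillary gate and 138 CPM in the lymphatic gate. Fstl1 and Nbl1 are abundant in fibroblasts, and the part of fibroblast transcripts in these ratios was not tested. Of 5 receptors tested 3 were higher, Bmpr1a at a ratio of 67.9 (11.9 to 2707, on 106 against 1 UMI), Acvr1 at 4.48 (2.64 to 8.11) and Eng at 3.65 (3.27 to 4.08), and Acvr2a was 2.78-fold lower on 9 against 16 UMIs. Among 7 targets Tmem100 (30.7, 11.8 to 114), Id2 (4.70) and Smurf1 (2.56) were higher and Msx1 2.03-fold lower. None of 3 transducers reached 2-fold.

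Fibroblasts, set against all other gated cells, had higher Bmp4, Bmp6, Bmpr2 and Id3. Bmp4 was at 101 against 15.9 CPM, a ratio of 6.38 (5.65 to 7.24), Bmp6 at 41.2 against 17.3 CPM (2.38, 2.11 to 2.71), Bmpr2 at 76.4 against 36.6 CPM (2.09) and Id3 at 1509 against 721 CPM (2.09). Of 9 members 4 were higher and 0 lower, where 22.4% of all genes were higher and 19.9% lower. The cells on the other side were mostly macrophages and lymphocytes, in which these genes are low. Bmp2 (1.35), Acvrl1 (1.43), Smad6 (1.11), Smad7 (1.82) and Id1 (0.894) stayed within 2-fold.

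Antagonists were the group with most fibroblast calls. Of 11 tested, 9 were higher and 1 lower, with a median log2 ratio of 3.72 beside 0.08 over all genes tested. Bmper, a BMP-binding endothelial regulator, had a ratio of 44.1 (25.1 to 85.5), the activin and BMP trap Fst (follistatin) 36.4 (21.6 to 66.8), chordin (Chrd) 28.8 and Fstl1 18.6, while Sost was 55.1-fold lower. The ligand Gdf6 had 286 UMIs in fibroblasts against 1 elsewhere, and Gdf10 a ratio of 2.57. Of 7 receptors the coreceptor Rgma (17.9), Bmpr1a (5.70) and Rgmb (4.02) were higher, and of 10 targets 4 were, led by Id4 (9.93) and Msx1 (4.31).

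Mural cells, set against fibroblasts, were poor in Bmp4. The 59 cells had 2 Bmp4 UMIs (7.05 CPM), against 101 CPM in fibroblasts, 14.4-fold lower (3.97 to 119). Bmp6 was 3.89-fold lower on 3 UMIs (1.33 to 18.9) and Smad7 2.70-fold lower (1.69 to 4.64), at 59.9 against 162 CPM. These 3 of 9 members were lower and 0 higher, where 8.63% of 16262 genes were lower and 19.9% higher. In the pooled mural cells Bmp2 (1.49), Id1 (1.50) and Id3 (1.17) lay above fibroblasts within 2-fold, Acvrl1 was 1.97-fold lower, and Smad6 had 0 UMIs. For Bmp2 and Id3 the pool joined gates that lay on opposite sides of fibroblasts (37.9 and 1509 CPM). Pericyte-type cells had 5.71 CPM of Bmp2 (1 UMI) and 919 CPM of Id3, and smooth muscle-type cells had 124 and 3182 CPM. Other pathway genes went both ways. Higher in mural cells were 2 of 3 ligands, Bmp5 (18 against 41 UMIs, ratio 63.7, 34.4 to 113) and Gdf10 (8.61), 1 of 10 antagonists, Crim1 (4.07), and 2 of 10 targets, the Notch and BMP targets Hey2 (32.9, 19.7 to 52.7) and Hey1 (5.14). Lower were 4 antagonists, Chrd (6.15-fold on 1 UMI, 1.10 to 243), Fstl1 (5.18-fold), Bmper and Fst (at least 2.89-fold and 2.79-fold, 0 UMIs), the targets Id2 (4.30-fold) and Tmem100 (2.08-fold), and 1 of 7 receptors, Rgmb (3.37-fold). The ligand list summed highest in pericyte-type cells, with Gdf10 at 57.1 CPM and Bmp5 at 45.7 CPM from 10 and 8 UMIs.

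Macrophages, set against all other gated cells, were low for most of the pathway. Bmp4 was 96.6-fold (55.2 to 187) and Bmp6 51.8-fold (28.1 to 108) lower, both at the lymphocyte background. Smad6 was 7.55-fold, Smad7 4.17-fold, Id1 3.86-fold, Bmpr2 3.36-fold and Id3 2.48-fold lower. Bmp2, at 28.9 against 36.7 CPM, and Acvrl1, at 89.5 against 104 CPM, were the 2 members that stayed within 2-fold. The 7 of 9 members that were lower stand beside 32.3% of all genes lower and 14% higher. Of 11 antagonists 10 were lower (median log2 ratio -4.88 beside -0.39 over all genes tested), of 10 targets 7 and of 7 receptors 5, while Id2 was not called.

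Resident-marker macrophages, set against other macrophages, had higher Bmp2. The level was 56.2 against 18.4 CPM, a ratio of 3.06 (2.43 to 3.85), and a UMI was seen in 15.7% against 5.83% of cells, or 8.31% (5.92 to 11.3) against 2.96% (2.08 to 4.07) at equal depth. The cell with most Bmp2 among the resident-marker cells held 26 of 174 UMIs. Smad7 was 2.40-fold lower (1.85 to 3.16), at 21.6 against 51.9 CPM. Of 6 members with enough UMIs, 1 was higher and 1 lower, where 5.21% of 11873 genes were higher and 5.21% lower. Id1 was 1.89-fold and Acvrl1 1.62-fold lower and Bmpr2 1.51-fold higher, within the threshold. Among other genes Bmpr1a was 2.18-fold higher and Bambi 2.24-fold lower.

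Fibroblast subsets, each set against all other fibroblasts, differed in few members, mainly Bmp2 and Smad6. Activated fibroblasts, marked by Cthrc1 and Postn, had Bmp2 at 9.71 against 38.6 CPM, 3.97-fold lower (2.09 to 8.70), with 0 of 9 members higher and 1 lower, where 7.26% of 16209 genes were higher and 6.18% lower. Their Id1 (ratio 1.58) and Id3 (1.33) lay above the other fibroblasts within 2-fold. Cycling fibroblasts also had lower Bmp2, 3.51-fold on 5 UMIs, the 1 member called where 13.9% of genes were higher and 9% lower, and its log2 ratio was -0.48 at equal depth. Wif1, Comp and Fmod fibroblasts had higher Bmp2 at 101 against 37.6 CPM (2.70, 1.72 to 4.03), with 8 of 24 UMIs in 1 cell and a log2 ratio of 0.91 without it, and 4.40-fold lower Acvrl1 (2.02 to 12.0). Those 2 calls, 1 in each direction, stand beside 11.1% of genes higher and 7.26% lower.

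Smad6 separated other subsets. Igfbp3, Mmp3 and Osr1 fibroblasts had 48.6 against 12.2 CPM, a ratio of 3.97 (2.44 to 6.14), and 4.48-fold lower Bmp6 on 4 UMIs (1.75 to 16.5), 1 member called in each direction where 10.9% of genes were higher and 6.15% lower. Progenitor-type fibroblasts, marked by Pi16 and Cd248, had Smad6 2.00-fold lower (1.55 to 2.62), the 1 member called where 1.64% of genes were higher and 7.43% lower, and not called with stricter gates or another scaling. Il6, Tnc and Col26a1 fibroblasts had Smad6 3.52-fold lower on 3 UMIs (1.20 to 17.1), the 1 call where 6.47% of genes were higher and 5.89% lower, and Id1 at a ratio of 1.93 (1.70 to 2.19). The Cxcl14 and C3 cells (3.7% of genes higher, 5.56% lower) and the Hsd11b1 and Penk cells (4.79% higher, 5.57% lower) had 0 of 9 members called.

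Among the other pathway genes, Tmem100 and Bmper had calls in several fibroblast subsets. Tmem100 was 4.72-fold higher in progenitor-type cells (223 against 47.2 CPM, 4.42 to 5.05), 12.3-fold lower in Il6, Tnc and Col26a1 cells and 10.2-fold lower in cycling cells. Bmper was higher in Hsd11b1 and Penk cells (2.89) and in Cxcl14 and C3 cells (2.50), and 3.60-fold lower in activated cells, which had higher Gdf6 (2.91). The targets Id4 (5.403 and 3.50) and Bambi (2.26 and 2.15) were higher in both the Wif1, Comp and Fmod cells and the Igfbp3, Mmp3 and Osr1 cells, and Msx1 (3.31) in the first of these. Fst was higher in the Igfbp3, Mmp3 and Osr1 cells (2.39) and 12.4-fold lower, on 2 UMIs (3.43 to 103), in the Il6, Tnc and Col26a1 cells.

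Joint detection of members in single cells was compared within gates at equal depth. Among 34 endocardial-type cells with Bmp4, 44.1% (27.2 to 62.1) also had Bmp6, against 31.3% (23.6 to 39.9) of 134 cells without. Among 396 fibroblasts with Bmp2, 25.3% (21.05 to 29.8) had Bmp4, against 19.9% (18.7 to 21.1) of 4595 without, and 7.07% against 9.03% had Bmp6. Intervals of the endocardial-type pair overlapped, and those of Bmp2 and Bmp4 in fibroblasts touched. In the other endothelial gate 60% of 20 cells with Bmp2 had Id1, against 65.3% of 98 without, and in capillary cells 96.3% of 109 cells with Id1 had Id3, against 85.2% of 27 without.

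Among 12273 genes with at least 200 UMIs in the gates, the patterns over the 21 gates most like each member were sought by Pearson r of log2(CPM + 1). All 21 points come from 1 library and differ in depth and cell number, so r is a description. Bmp4 was closest to Peg3 (0.955), Kazald1 (0.953) and Fgd1 (0.934), Bmp6 to Pcdh7 (0.926), Tek (0.902) and Gata6 (0.900), and Bmp2 to Iqsec2 (0.858), Dand5 (0.836) and Gm44250 (0.813). The ligands thus shared no nearest gene. Smad6 was closest to Ankrd29 (0.920), Gm38197 (0.892) and Vegfc (0.884), Id1 to Abcg2 (0.957), Fkbp1a (0.939) and Slc9a3r2 (0.913), and Id3 to Tbc1d19 (0.953), Plcd1 (0.930) and Pls3 (0.924).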

How the data were processed

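The deposited file is 1 droplet library (10x 3′ chemistry, version 3.1, 10000 cells aimed at) of viable non-cardiomyocytes sorted on calcein and DAPI, per the labels. It holds raw UMI counts per gene and barcode, which the authors deposited unnormalized. STARsolo, Scanpy and the build mm10 are named in the submitters' processing notes, and their versions, settings, cell filter and strand rule are not given in the sources used here. The library of hashtags was not analysed here. The matrix had 9369 barcodes and 69993559 UMIs, 2567 to 42567 per barcode (median 6663), and no other library with cells to share barcodes with.

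Doublets were called with Scrublet (Scanpy 1.11.5) and removed (357 barcodes, 3.81%), and no other cell was filtered out. Gates used raw UMIs, a marker counting as present at 2 UMIs. A lineage needed 3 of 8 markers and 2 more than any other lineage, an endothelial subset 3 markers and a lead of 2, a mural subset 3 of 5 markers, resident-marker macrophages 3 of 5, and a fibroblast subset 2 of its markers (cycling 3 of 8) and no other subset. Macrophage-gate cells with 2 monocyte or neutrophil markers (212) and fibroblast-gate cells with 2 mesothelial markers (5) were set aside, and 839 cells were in no gate. Members, lists, markers and thresholds were chosen with earlier results of these data known.

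UMIs were summed per gate and divided by the gate total, and gate markers were left out of the counts over all genes. Ratios carry exact binomial intervals, shares Clopper-Pearson intervals (SciPy 1.17.1), and a side with 0 UMIs was set to a floor of 3 UMIs. Ratios given as "at least" rest on that floor and leave out the counting error of the other side. The genes named are the 10 members and, of 45 further pathway genes in fixed lists, the most abundant and those at least 2-fold apart. Another gene of the antagonist list is not reported here. Gene positions and overlaps came from GENCODE M21 on GRCm38, which matched 52029 of 56954 feature IDs. The alternatives were doublets kept, stricter gates, Leiden clusters, another scaling, equal weight or depth of cells, no top cell and no UMI minimum.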

Additional observations from a re-analysis of the deposited data

How the results depend on the processing

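Most ratios, called or not, kept their side: over the members' ratios, of 1189 values under the alternatives 1141 kept their side of the 2-fold threshold, 34 passed it newly, 12 dropped below it and 2 passed it in the other direction. Ratios with too few UMIs under an alternative have no value there and are not counted. All 316 values of called ratios kept their direction, and of 873 values of ratios not called 63 changed sign. The 2 that passed in the other direction, under Leiden clusters, were Bmp6 in lymphatic against capillary cells (log2 ratio -1.50) and Bmp2 in mural cells against fibroblasts (-2.89). The cause was not tested. The number of members called changed by more than 1.5 times as follows. In lymphatic against capillary cells it was 5 with Leiden clusters and 0 with cells thinned to 2500 UMIs, in place of 3, and in mural cells against fibroblasts 5 with Leiden clusters in place of 3. In progenitor-type fibroblasts it was 0 in place of 1 with 3 UMIs per marker, with 4 lineage markers and with median-of-ratios scaling, where the Smad6 log2 ratio lay just inside -1. In Cxcl14 and C3 fibroblasts it was 1 in place of 0 with thinned cells and without the top cell of each gene, and in Hsd11b1 and Penk fibroblasts 1 in place of 0 with 3 UMIs per marker and with Leiden clusters. In Il6, Tnc and Col26a1 fibroblasts it was 2 in place of 1 with 3 UMIs per marker, with cells weighted equally and without the top cell, and 3 with thinned cells. In Wif1, Comp and Fmod fibroblasts it was 4 in place of 2 with Leiden clusters, and in cycling fibroblasts 2 in place of 1 with thinned cells. With Leiden clusters, which gave no smooth muscle-type or other endothelial class, 4 of 9 members kept their highest gate, and with thinned cells 6. Bmp2, Acvrl1 and Id3 were highest in these missing classes and so could not keep their gate with Leiden clusters. Under stricter gates 19 and 17 smooth muscle-type cells remained, too few to be ranked, with Id3 at 3038 and 3062 CPM. Bmp6, Bmpr2 and Smad6 stayed highest in endocardial-type cells and Id1 in capillary cells under every alternative run. Median-of-ratios scaling moved the log2 ratios of all genes by -0.39 in mural cells against fibroblasts, -0.29 in cycling fibroblasts, -0.21 in endothelial cells, 0.20 in macrophages, -0.17 in lymphatic against capillary cells and -0.16 in resident-marker macrophages. Leiden clustering gave no class for Cxcl14 and C3 or cycling fibroblasts, so these have no value there. No paired analysis was possible because the 1 library has no map from cells to mice.

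Depth limits the small gates most: in lymphatic, pericyte-type and smooth muscle-type cells 3 UMIs are 10.6, 17.1 and 30.9 CPM, and lower levels rest on 1 or 2 UMIs there. Intervals treat UMIs as independent, and transcripts held by few cells (Bmp2, Bmp4) vary more than they show. Differences between mice cannot be told apart from differences between cells.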
